A study of Arabidopsis thaliana with 45 samples.

Results

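The 200 genes described here were those whose normalised read count in Arabidopsis Col-0 leaves under long days stood higher at D13 than on every later day by the widest margin. The mean of log2(value + 1) was taken on each of the 5 long-day Col-0 days for all 37336 genes, and 15228 genes averaged 100 or more at D13. These were ranked by the D13 mean minus the highest mean of D18, D23, D30 and D40, and the first 200 were kept. The genes were thus chosen by the long-day Col-0 values, which are given as a description with no test. The course of the same genes in the other 2 series took no part in the choice and could be tested: each later day was set against D13 of its own series with limma, and a gene counted as called lower or higher at a Benjamini-Hochberg adjusted p under 0.05 over 23493 genes.

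First true leaves of Arabidopsis thaliana, the thale cress, were profiled by sequencing of polyadenylated RNA in a study of ageing plant organs. There are 45 libraries in 15 groups of 3. The first series carries the label tcx5/6, in the Col-0 background, was grown in long days with 16 h of light per day, and was sampled on D13, D18, D23, D30 and D45. The second is Col-0 labelled as grown in short days, with 8 h of light, and the third is Col-0 grown in long days; both have D40 in place of D45 as their last day. Col-0 is the standard laboratory accession, and tcx5/6 is a line named after TCX5 and TCX6, whose proteins belong to the DREAM complex, a repressor of cell-cycle genes. The labels give the day as DAG, name no allele, and do not say whether the 3 libraries of a group came from separate plants, so the p-values rest on a spread between libraries that may be technical.

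Each library held between 16824317 and 40252818 reads in genes. The line's own genes did not bear out the tcx5/6 label. TCX5 lay between 231 and 522 normalised counts in tcx5/6-labelled leaves and between 54.1 and 216 in short-day-labelled leaves, against 271 to 525 in Col-0 long days. TCX6 lay between 0 and 142 in tcx5/6-labelled leaves and between 219 and 2200 in short-day-labelled leaves, against 15.7 to 418 in Col-0 long days. Medians of TCX5 and TCX6 were 342 and 37.7 under the tcx5/6 label, against 346 and 39.2 in Col-0 long days. Under the short-day label they were 131 and 392. Neither gene was plainly lower under the tcx5/6 label than in Col-0 long days, so both series are named by their labels throughout. Mesophyll markers were present in every library, with 4 of them summing to at least 6085 normalised counts, while 4 shoot meristem markers summed to at most 18.7. The lowest sum of 4 trichome markers was 0, at short-day-labelled D40. Of 3 root markers 2 were read at D13 under the tcx5/6 label, summing to 1697 to 3073 normalised counts, and the sum was at most 501 in every other group, with 242 to 501 at D18 under that label. Every fall from D13 under the tcx5/6 label below stands beside that drop, and its part in the results was not tested. Between libraries of a group, the chi-square of the counts per gene was 2.19 to 20.5 times as large in genes of many reads as in genes of few in the tcx5/6-labelled series and 6.03 to 36.2 times in Col-0 long days, but 1.13 to 1.21 times in the short-day-labelled series. The spread of the short-day-labelled libraries relative to counting noise thus hardly grew with the number of reads, and may be technical alone. Each SE and p-value below rests on 1 spread per gene pooled over all 15 groups, not on the spread of the libraries compared. With only the groups of 1 series in the fit, 107 of the 200 genes were called lower at D18 under the short-day label in place of 74. Under the tcx5/6 label 103 were called lower at D18 in place of 122. An alternative fit counted each group as 1 library. Replicate 2 of tcx5/6-labelled D18 stood apart: 36.1% of genes at 20 to 50 in both other libraries of the group had no read in it, and 68 of the 200 members were at 0 there, against 37 and 30 in replicates 1 and 3. Replicate 1 of short-day-labelled D40 lacked 16.3% of such genes.

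A young leaf is built by dividing cells that then expand. In that phase the epidermis lays down its cuticle, a film of cutin and waxes, stomata are spaced by signals between epidermal cells, wall enzymes loosen and remodel the growing walls, and proplastids become chloroplasts with the help of chaperonins and plastid RNA polymerases. A second class of leaf transcripts is known for speed: genes of the ERF and WRKY transcription factor families are switched on soon after touch, wounding or a change of temperature, and their messages decay quickly.

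The ranking value ran from 6.49 on the log2 scale for PDF1 to 1.22 for PUB22, with a median of 1.54. Just inside rank 200 stood AT3G06880 (1.22), PEPR1 (1.22) and PUB22 (1.22), and just outside it AT4G04075 (1.22), AT5G19240 (1.22) and BT5 (1.21), so the values on both sides of the limit are alike. Of the 200 genes, 191 are annotated as protein coding, 6 as long non-coding RNAs and 3 as pseudogenes, 106 have a symbol, and none is encoded in the plastid or the mitochondrion. Their mean at D13 ran from 102 to 24664 normalised counts, with a median of 540.3.

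The members fell into 2 kinds by their long-day Col-0 libraries, a division made after these values were seen. In 130 members each of the 3 D13 libraries lay above each of the 12 later libraries, and the highest D13 library was a median of 1.33 times the lowest. In the other 70 the D13 libraries and the later ones overlapped, and the highest D13 library was a median of 16.9 times the lowest, up to 140 times. Among these 70 the order of the D13 libraries was nearly always the same, with replicate 1 highest in 68 and replicate 3 lowest in 68. The 130 are called the separated members and the 70 the overlapping members below.

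**Figure D1:**
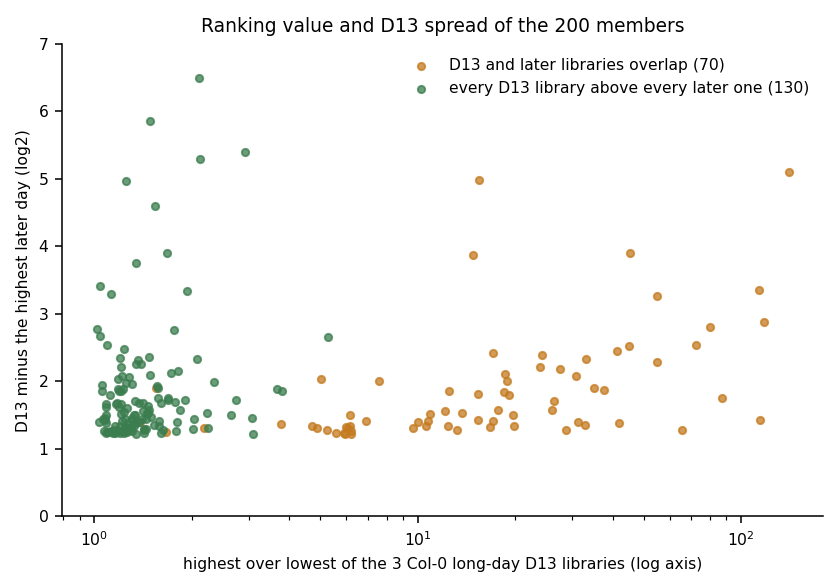
Each point is 1 of the 200 members; the horizontal axis (log scale) gives its highest over its lowest value among the 3 Col-0 long-day D13 libraries and the vertical axis its D13 mean minus its highest later mean (log2). The 130 separated members lie mostly at the left, with a median ratio of 1.33, and the 70 overlapping members extend to a ratio of 140.

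In the long-day Col-0 series that chose them, the separated members had a median group mean of 341 normalised counts at D13, 116 at D18, 71.8 at D23, 17.5 at D30 and 4.94 at D40. The highest later day was D18 in 93 of the 130 and D23 in 31, and D40 was the lowest day in 94. At D40, 54 to 56 of the 130 had no read in a given library. A value of 0 there does not show absence of the transcript, since 1.13 to 3.83% of genes at 20 to 50 in both other D40 libraries were at 0 too. Within D18 the libraries were uneven, with medians over the 130 of 51.9, 193 and 114 in replicates 1, 2 and 3. In bulk leaves, fewer cells of a type and less RNA per cell cannot be told apart.

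Genes of the epidermis, its cuticle and its stomata led the ranking, with 18 members placed in this group after their values were seen, all of them separated. The first, PDF1 (AT2G42840), encodes a proline-rich wall protein made in the outermost cell layer. In the tcx5/6-labelled libraries it had 18474, 16799 and 17908 normalised counts at D13, 115, 0 and 4.59 at D18, 11, 10.1 and 10.9 at D23, 0, 0 and 1.11 at D30 and 0.773, 0 and 0 at D45. In the short-day-labelled libraries it had 1700.2, 1567 and 1778 at D13, 45.5, 33.4 and 72.4 at D18, 0, 0 and 3.24 at D23, and was at 0 in all libraries of D30 and D40. In Col-0 long days it had 2082, 986 and 1153 at D13, 0, 86.4 and 36.2 at D18, 0, 0 and 13.1 at D23 and no read at D30 or D40. Every later library of each series lay below every D13 library of that series. Measured against D13, PDF1 changed by -11.00 ± 1.13 (SE, adjusted p = 1.3e-09) on the log2 scale at D18 under the tcx5/6 label, or -9.44 without replicate 2 of D18, and by -5.10 ± 1.13 (SE, adjusted p = 5.6e-04) at D18 under the short-day label. At D30 the short-day-labelled mean was at least 1883-fold lower than D13, taking 3 reads over the group as the floor.

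LTL1 (AT3G04290), a GDSL-type lipase, followed the same course. It had 149, 110.0 and 56.9 normalised counts at D18 against 7380.3, 6599 and 7106 at D13 in the tcx5/6-labelled libraries, and 61.4, 26.3 and 31.6 at D18 against 2248, 2428 and 2104 at D13 in the short-day-labelled ones. Its changes at D18 were -6.15 ± 1.01 (SE, adjusted p = 7.6e-06) and -5.89 ± 1.01 (SE, adjusted p = 1.8e-05) on the log2 scale. In both series it was at 0 in every library of D30 and of the last day.

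Both SDD1 and TMM set the spacing of stomata, the pores of the leaf surface. SDD1 (AT1G04110), a subtilisin-like protease that limits stomatal density, had 104, 0 and 47.8 normalised counts at D18 against 779, 574 and 624 at D13 under the tcx5/6 label. Under the short-day label it had 27.7, 19.9 and 27.8 at D18 against 500.0, 458 and 536 at D13. The change was -5.25 ± 1.18 (SE, adjusted p = 5.2e-04) on the log2 scale in the tcx5/6-labelled series, where replicate 2 of D18 was at 0 and the change without it was -3.19, and -4.27 ± 1.18 (SE, adjusted p = 0.0049) in the short-day-labelled series. TMM (AT1G80080), the receptor-like protein that patterns stomata, changed by -4.37 ± 0.69 (SE) and -3.46 ± 0.69 (SE) in the same comparisons, and it kept falling to 0, 9.04 and 4.38 normalised counts at D45 under the tcx5/6 label, against 1338, 1137 and 1230.2 at D13. Both are among 11 stomatal lineage markers, whose summed level was lower at D18 than at D13 in every library: the sums were 875 to 1311 at D18 against 5096 to 5776 at D13 under the tcx5/6 label, 481 to 510.5 against 2847 to 3046 under the short-day label, and 605 to 1114 against 1643 to 1830 for Col-0 grown in long days. Among the 11 markers, 10 were called lower at D18 under the tcx5/6 label and 9 under the short-day label, and none higher. SDD1 and TMM were chosen by their fall in Col-0 long days and are in all these sums and counts. The long-day sums thus hold values that chose these genes and are a description. The 4 guard cell markers, of the mature pore, gave 1 of 4 called higher and none lower at D18 under the tcx5/6 label, and 1 lower and none higher under the short-day label. Of all genes tested 21.8% and 14.5% were called lower, and 17.8% and 16.8% higher, under the tcx5/6 and short-day labels. A count of 1 of 4 is thus no result about guard cells.

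Lipid genes of the surface formed the rest of the group. They comprise the 3-ketoacyl-CoA synthases KCS19, KCS16, KCS5 and KCS8, which lengthen fatty acids for waxes, the fatty acyl reductase FAR1, the desaturases ADS1 and AT1G06360, HTH, an oxidoreductase needed to keep young organs from fusing, the homeodomain protein HB-7, a lipid-transfer-like protein and 4 more GDSL lipases. KCS19 had 51.1, 120.0 and 143 normalised counts at D18 against 2121, 1847 and 2408 at D13 under the tcx5/6 label, a change of -4.45 ± 0.89 (SE) on the log2 scale. In short-day-labelled libraries it had 89.1, 138 and 159.6 at D18 against 740.4, 708 and 728 at D13, a change of -2.52 ± 0.89 (SE) whose call was lost without any 1 of 5 of the 6 libraries. KCS8, one of the 5 steepest named falls at D18 under the tcx5/6 label at -6.44 ± 0.68 (SE, adjusted p = 2.5e-09), was not called at D18 under the short-day label, with -1.39 ± 0.68 (SE, adjusted p = 0.12). FAR1 (AT5G22500) had 0, 0 and 16.5 at D18 against 239, 218 and 147 at D13 under the tcx5/6 label, but 160.3, 209 and 214 at D18 against 106, 125 and 133 at D13 under the short-day label, a change of 0.67 ± 0.80 (SE, adjusted p = 0.58). Under that label it was called lower first at D30, with a change of -2.99 ± 0.80 (SE, adjusted p = 0.0017). FAR1 shares reads with AT5G22505, a member on the opposite strand with 74.8% of its exons under FAR1.

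As a group, all 18 epidermal members were called lower at every later day under the tcx5/6 label, and 10, 17, 17 and 18 of 18 at D18, D23, D30 and D40 under the short-day label. None was called higher. Their median log2 change at D18 was -4.85 under the tcx5/6 label and -2.30 under the short-day label. Over all 23493 genes tested the medians were -0.03 and -0.01, and 21.8% and 14.5% were called lower. The short-day-labelled count at D18 rests on the 3 libraries being replicates: with each group counted as 1 library, PDF1, LTL1, SDD1, TMM and KCS19 were not called there, nor was SDD1 at D18 under the tcx5/6 label. The 3 epidermis markers, of which PDF1 is one, summed to 5601 to 9233 normalised counts at D18 against 25301 to 27694 at D13 under the tcx5/6 label, 4356 to 4445 against 7212 to 7488 under the short-day label, and for Col-0 grown in long days 4297 to 6129 against 6130 to 7255. PDF1 was itself chosen by its fall and held much of the D13 sum under the tcx5/6 label, so these sums cannot show the share of epidermal cells. Of the 2 markers that are not members, 1 was called lower at D18 under the tcx5/6 label and none under the short-day label. At D23 the sum for long-day Col-0 was 6540 to 7113, within its D13 range. The part of the share of epidermal cells in the falls of the members was not tested. The 18 were picked among genes chosen by their fall, so their counts are no result about cuticle genes as a class. A separate list of 32 cuticle, wax and lipid transfer genes, given below, held no member. At D18 more of that list were called lower than higher under the tcx5/6 label, and more higher than lower under the short-day label.

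**Figure D2:**
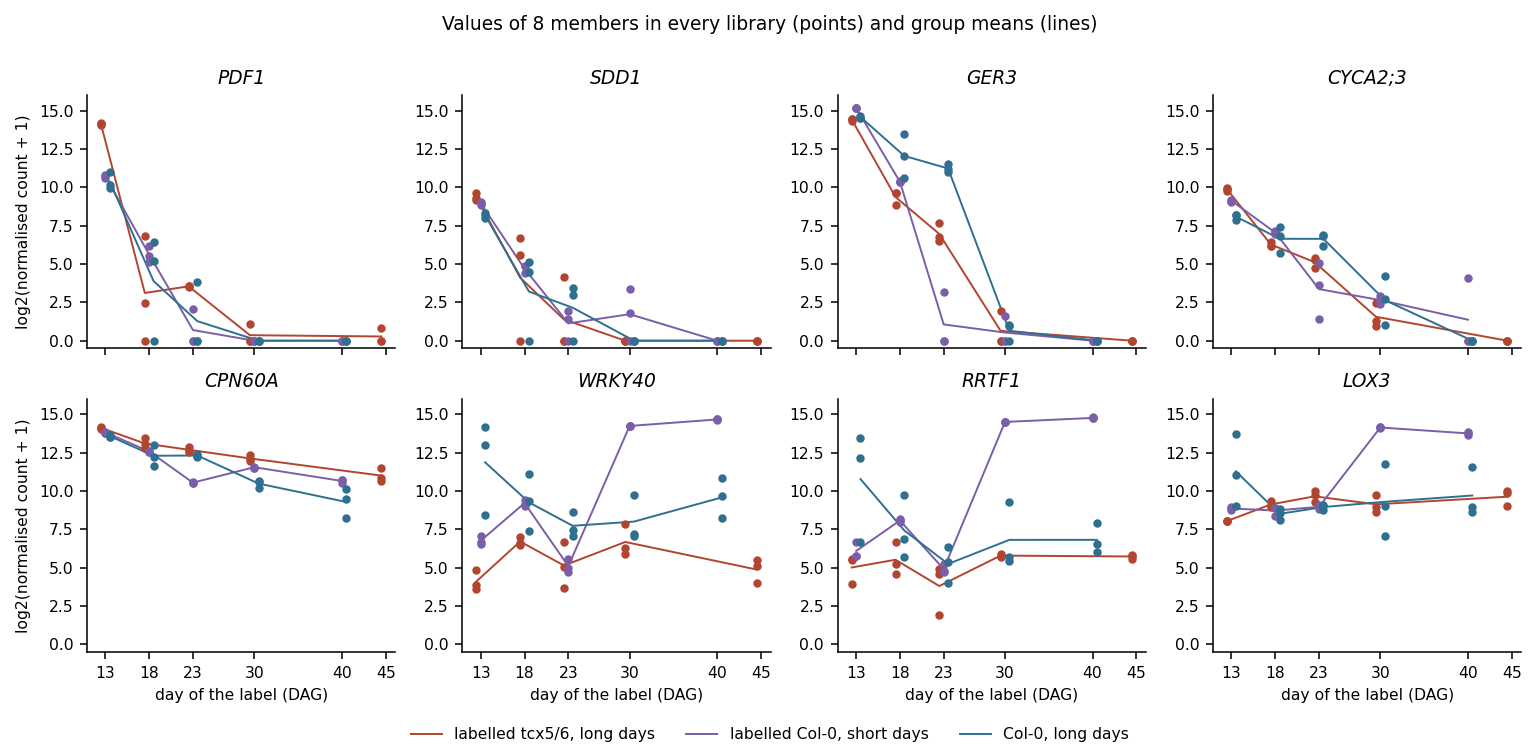
Each panel is 1 member; points are single libraries and lines join the means of the 3 libraries of a day, as log2(normalised count + 1) against the day of the label, in the tcx5/6-labelled, short-day-labelled and Col-0 long-day series. PDF1, SDD1, GER3, CYCA2;3 and CPN60A were high at D13 in all 3 series and lower on every later day, whereas WRKY40, RRTF1 and LOX3 spread widely at D13 in Col-0 long days and were highest at D30 and D40 in the short-day-labelled libraries.

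Cell wall genes made up 12 members, 10 of them separated. GER3 (AT5G20630), a germin-like protein of the wall, had 22566, 20860.1 and 22648 normalised counts at D13, 806, 458 and 784 at D18, 105, 87.9 and 204 at D23 and 0 in all 3 libraries at D45 in the tcx5/6-labelled libraries. It had 37722, 36368 and 37819 at D13, 1352, 1314 and 1286 at D18 and 0, 0 and 8.10 at D23 in the short-day-labelled libraries. In Col-0 long days it had 24077, 23814 and 26102 at D13, 1595, 11588 and 4148 at D18, 2063, 2328 and 2904 at D23 and 0 in all 3 libraries at D40. Every D18 library of all 3 series lay below every D13 library, and at D23 the transcript was at or near 0 under the short-day label but not in Col-0 long days. The D18 changes were -5.05 ± 0.59 (SE, adjusted p = 1.8e-08) under the tcx5/6 label and -4.82 ± 0.59 (SE, adjusted p = 5.1e-08) under the short-day label.

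PME5, a pectin methylesterase, changed by -3.33 ± 0.66 (SE, adjusted p = 1.1e-04) on the log2 scale at D18 under the tcx5/6 label and by -3.76 ± 0.66 (SE, adjusted p = 2.4e-05) under the short-day label. EXPA16, an expansin of the wall-loosening family, had 102, 38.0 and 186 normalised counts at D18 against 165, 199 and 312 at D13 under the tcx5/6 label, a change of -1.26 ± 0.50 (SE, adjusted p = 0.042). Under the short-day label it had 25.7, 15.1 and 21.3 at D18 against 234, 252 and 289 at D13, a change of -3.60 ± 0.50 (SE, adjusted p = 4.8e-07). EXPA16 was low in both of those series already at D13, where Col-0 long days held 1794, 2238 and 2129.7. F8H, a glycosyltransferase of glucuronoxylan, changed by -5.99 ± 1.11 (SE, adjusted p = 4.3e-05) at D18 under the tcx5/6 label, or -4.61 without replicate 2 of D18. Without that library EXPA16 changed by -0.65 and was not called, and leaving out any of 4 of the 6 libraries lost its call. With each group counted as 1 library, EXPA16 and F8H were not called at D18 under the tcx5/6 label, nor PME5 under the short-day label.

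The xyloglucan-modifying enzymes did not follow one course. XTH15 had 29.9, 12.3 and 8.88 normalised counts at D13 under the tcx5/6 label and 1.36, 4.22 and 2.93 under the short-day label, against 1602, 2504 and 1953 in Col-0 long days. Its high level at D13 was seen in Col-0 long days and not in the other series, and it shares 31.6% of its exon length with AT4G14120, a member on the opposite strand. XTH18, one of the 2 overlapping wall genes, rose at D18 under the short-day label by 4.12 ± 1.06 (SE, adjusted p = 0.0027) and reached 487, 520.4 and 496 normalised counts at D30, against 0, 2.81 and 0 at D13. Under the tcx5/6 label it had 0 in all 3 libraries at D18 against 0, 9.48 and 0 at D13. AGP1, an arabinogalactan protein and the other overlapping wall gene, was called higher at D30 under the short-day label at 4.06 ± 0.75 (SE, adjusted p = 2.0e-05) and lower at D30 under the tcx5/6 label at -3.24 ± 0.75 (SE, adjusted p = 3.7e-04). Over the group, 10 of 12 members were called lower and none higher at D18 under the tcx5/6 label, and 5 lower and 1 higher under the short-day label. Of all genes tested 21.8% were called lower and 17.8% higher under the tcx5/6 label, and 14.5% lower and 16.8% higher under the short-day label, so 1 of 12 higher lies below the background. The rise of XTH18 was not called at D18 with each group counted as 1 library.

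Cell division and DNA genes numbered 12, all separated. CYCA2;3 (AT1G15570), an A-type cyclin, had 85.1, 72.0 and 72.6 normalised counts at D18 against 1007, 933 and 875 at D13 under the tcx5/6 label. It had 121, 136 and 140.2 at D18 against 587, 550.3 and 538 at D13 under the short-day label. The libraries of the 2 days did not overlap in either series, with changes of -3.60 ± 0.76 (SE, adjusted p = 2.6e-04) and -2.07 ± 0.76 (SE, adjusted p = 0.035). Leaving out any 1 of the 6 libraries lost the short-day-labelled call, with changes of -2.11 to -2.01, and neither was called with each group counted as 1 library. RNR1, the large subunit of ribonucleotide reductase, which makes the building blocks of DNA, changed by -2.79 ± 0.28 (SE, adjusted p = 6.9e-10) and -1.94 ± 0.28 (SE, adjusted p = 9.6e-07). The group moved less evenly under the short-day label: 11 of 12 members were called lower at D18 under the tcx5/6 label and all 12 at D30 and D45, while 4, 8, 7 and 8 were called lower at D18, D23, D30 and D40 under the short-day label. Over all genes tested 21.8%, 30.5% and 33.9% were called lower at D18, D30 and D45 under the tcx5/6 label, and 14.5%, 25.5%, 28.7% and 36.5% on the 4 short-day-labelled days. SMC2, a condensin subunit, shows that difference in its values, with 71.5, 158 and 37.7 normalised counts at D30 against 659, 632 and 605 at D13 under the tcx5/6 label and 1045, 1045 and 1121 at D30 against 1516, 1373 and 1552 at D13 under the short-day label. Its change at D30 was -3.05 ± 0.40 (SE, adjusted p = 4.0e-08) in the tcx5/6-labelled series and -0.47 ± 0.40 (SE, adjusted p = 0.33) in the short-day-labelled series. The HMG-box protein 3xHMG-box2, which binds mitotic chromosomes, was called lower at D18 under the short-day label and higher at D40, by 1.17 ± 0.51 (SE, adjusted p = 0.041), a call lost without any 1 of 5 of the 6 libraries. The difference between the series was not tested.

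Few genes of the division lists were members. RNR1 was the only member among 14 DNA replication genes, and none of 19 mitosis genes was one. At D18 under the tcx5/6 label 13 of 14 replication genes and 19 of 19 mitosis genes were called lower, with medians of -2.14 and -2.98 on the log2 scale. In the short-day-labelled series 4 of 14 and 3 of 19 were called lower, with medians of -0.75 and -1.42. Since 21.8% and 14.5% of all genes tested were called lower in these comparisons, 3 of 19 lies near the background and is no result about the mitosis genes.

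Genes of plastid biogenesis, 12 separated members, came next. They include the chaperonin subunits CPN60A, CPN60B and Cpn60beta2, which fold Rubisco and other stromal proteins, the plastid RNA polymerase SCA3, the factors PRIN2, PDE312 and FLN2 that work with the plastid-encoded polymerase, the stromal HSP90-type chaperone CR88, and BCCP2, a subunit of plastid acetyl-CoA carboxylase. CPN60A had 11501, 7004 and 8432 normalised counts at D18 against 18600.5, 17532 and 17230.0 at D13 under the tcx5/6 label. It had 6019, 6045 and 6269.6 at D18 against 14921, 14415 and 14376 at D13 under the short-day label. The libraries did not overlap, and the changes were -1.02 ± 0.27 (SE, adjusted p = 0.003) and -1.25 ± 0.27 (SE, adjusted p = 4.3e-04) on the log2 scale. SCA3 changed by -1.12 ± 0.29 (SE, adjusted p = 0.0023) and -2.38 ± 0.29 (SE, adjusted p = 4.7e-08) in the same comparisons. Unlike the epidermal genes, both kept a level: at the last day CPN60A stood at 1842, 1637 and 2879 normalised counts under the tcx5/6 label, 1673, 1670.2 and 1501 under the short-day label and 298, 725 and 1121 in Col-0 long days. All 12 were called lower at D18 under the tcx5/6 label and 11 of 12 under the short-day label, with medians of -1.58 and -1.76, against 21.8% and 14.5% of all genes tested. With each group counted as 1 library, CPN60A was called at D18 in neither series, and SCA3 was not called under the tcx5/6 label. The 27 photosynthesis genes of a separate list, none of them a member, gave none called lower at D18 in either series, and 1 and 13 called higher under the tcx5/6 and the short-day label. Of all genes tested 17.8% and 16.8% were called higher at D18. On later days 1, 24 and 26 of the 27 were called lower at D23, D30 and D45 under the tcx5/6 label, and 8, 22 and 25 at D23, D30 and D40 under the short-day label. The shares of all genes tested were 23.8%, 30.5% and 33.9% under the tcx5/6 label and 25.5%, 28.7% and 36.5% under the short-day label, so 8 of 27 lies near the background.

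The groups by role described here, such as the epidermal one, were all formed after the values were seen and hold the smaller part of the members. No role was given to 120 members, of which 76 are separated and 44 overlapping, so these groups do not describe the members as a whole. Other members with a symbol had diverse functions. PHE1, a MADS-box gene best known from seed endosperm, changed by -3.94 ± 0.97 (SE, adjusted p = 0.0013) and -2.53 ± 0.97 (SE, adjusted p = 0.044) at D18 in the tcx5/6- and short-day-labelled series. RBK2, a kinase that binds ROP signalling proteins, was called lower at D18 under the short-day label, with 7.92, 0 and 0 normalised counts against 57.2, 54.8 and 88.0 at D13. GDPD2, a phosphodiesterase of phosphate supply, was called lower at D30 under the tcx5/6 label at -4.05 ± 0.86 (SE, adjusted p = 1.2e-04), but higher under the short-day label at 3.79 ± 0.86 (SE, adjusted p = 3.0e-04). There it had 645, 704 and 694 normalised counts at D30 against 73.6, 37.2 and 41.1 at D13. RCI2B, a small membrane protein of cold and salt responses, changed by -5.37 ± 0.95 (SE, adjusted p = 2.2e-05) at D18 under the tcx5/6 label and was not called at D18 under the short-day label at -1.07 ± 0.95 (SE, adjusted p = 0.43). Without replicate 2 of tcx5/6-labelled D18 the changes there were -2.94 for PHE1 and -4.38 for RCI2B. The short-day-labelled call of PHE1 was lost without any 1 of 4 of the 6 libraries, and with each group counted as 1 library PHE1 was called at D18 in neither series. GDPD2 changed by -5.43 to -3.36 at D30 under the tcx5/6 label with 1 library left out.

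Further members had unlike values in the other 2 series. CSD2, a copper/zinc superoxide dismutase of the plastid named here after its values were seen, had 1596, 1801 and 1879 normalised counts at D18 and 1496, 1651 and 1569 at D13 under the tcx5/6 label, a change of 0.16 ± 0.30 (SE, adjusted p = 0.74). It had 533, 611 and 658 at D18 against 4114, 4232 and 4457 at D13 under the short-day label, a change of -2.83 ± 0.30 (SE, adjusted p = 2.7e-09). ACS11, an enzyme of ethylene synthesis, was at 2.06, 0 and 0 at D13 under the tcx5/6 label and 85.1, 94.2 and 80.7 under the short-day label, against 1582, 1175 and 299.8 in Col-0 long days. IAA19, an auxin response repressor, was called lower at D23, D30 and D45 under the tcx5/6 label and on no day under the short-day label. MIOX2, an inositol oxygenase also named after its values were seen, reached 1319.5, 1470.3 and 1612 normalised counts at D40 under the short-day label, against 6.81, 0 and 19.1 at D13.

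Counted together, the 130 separated members were called lower in 108, 116, 119 and 124 cases at D18, D23, D30 and D45 under the tcx5/6 label, and in 70, 111, 102 and 113 cases at D18, D23, D30 and D40 under the short-day label. At most 4 were called higher in any of these comparisons. Of all genes tested, 21.8%, 23.8%, 30.5% and 33.9% were called lower at the same days under the tcx5/6 label, and 14.5%, 25.5%, 28.7% and 36.5% under the short-day label. Among the 15228 genes at 100 or more at long-day D13, from which the members came, these shares were 24.6%, 28.5%, 36.2% and 40.1% under the tcx5/6 label and 18.4%, 31.7%, 34.7% and 41.6% under the short-day label. Median log2 changes of the separated members ran from -2.67 at D18 to -5.44 at D45 in the tcx5/6-labelled series, or -5.62 at D45 with the 30 members at 0 set to their floor. In the short-day-labelled series they ran from -1.87 at D18 to -3.64 at D40, or -3.72 with 27 members at their floor. Comparisons within a series share the D13 libraries.

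Across all 200 members, 122, 128, 132 and 138 were called lower at D18, D23, D30 and D45 under the tcx5/6 label, and 74, 131, 105 and 117 at D18, D23, D30 and D40 under the short-day label. All 200 passed the filter on low values, which was met in at least 3 libraries of the long-day Col-0 series by the rule itself. Within the other series 181 reached 10 in at least 3 tcx5/6-labelled libraries and 198 in at least 3 short-day-labelled ones. Called lower at all 4 later days were 108 members under the tcx5/6 label, against 11.8% of all genes tested, and 69 under the short-day label, against 9.08%. The separated members supplied 100 of the 108 and 67 of the 69. Genes that met the level condition at D13 had somewhat higher shares, 14.5% and 12%. Without replicate 2 of tcx5/6-labelled D18, the library short of reads in many genes, 89 members were called lower at that day in place of 122. With each short-day-labelled group counted as 1 library, 15 members were called lower at D18 and 76, 64 and 78 at D23, D30 and D40. With each tcx5/6-labelled group counted so, 51 were called lower at D18 and 80, 106 and 127 at D23, D30 and D45.

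**Figure D3:**
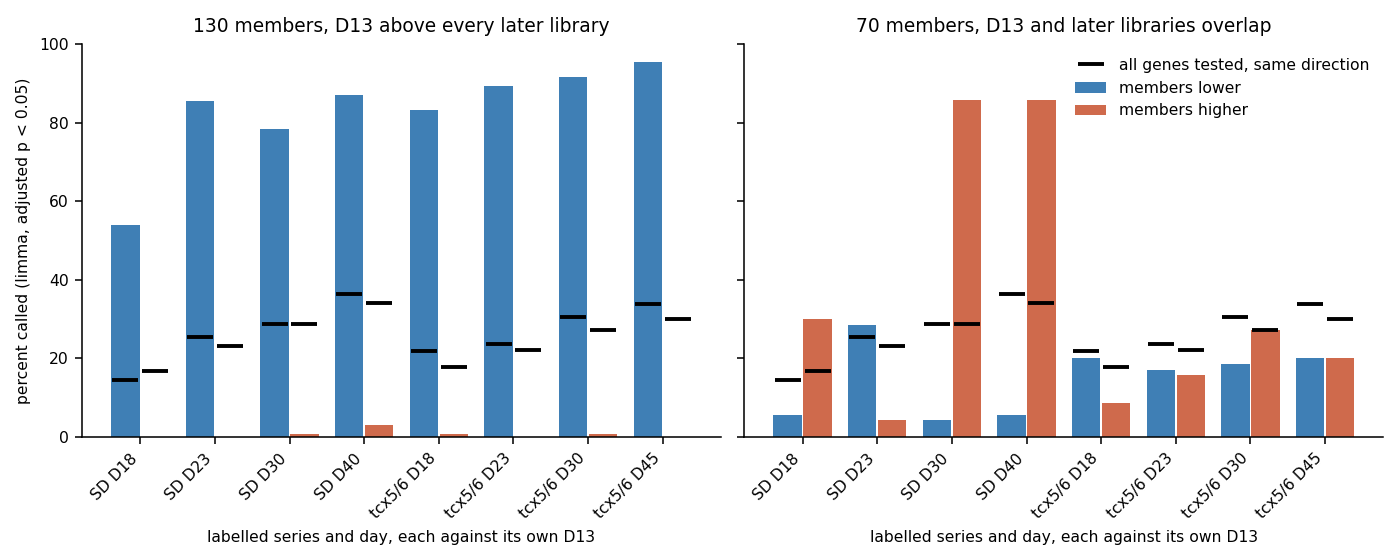
Bars give the percent of the 130 separated members (left) and the 70 overlapping members (right) called lower or higher than D13 by limma at an adjusted p under 0.05 in each short-day-labelled and tcx5/6-labelled comparison; black ticks give the percent of all 23493 genes tested called in the same direction. Separated members were lower in 53.8 to 95.4% of cases, and 85.7% of the overlapping members were higher at D30 and at D40 under the short-day label.

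Among the 70 overlapping members, 23 were placed in a group of early response and defence genes after the values were seen, and 44 were given no role. The size of this group and its lack of separated members are thus no result about the overlapping members. WRKY40 (AT1G80840), a transcription factor of defence and abscisic acid responses, had 13.4, 27.5 and 11.4 normalised counts at D13, 97.9, 129 and 88.2 at D18, 31.8, 11.8 and 103 at D23, 58.0, 230.1 and 77.6 at D30 and 44.8, 33.1 and 15.3 at D45 under the tcx5/6 label. Under the short-day label it had 136, 92.1 and 99.8 at D13, 521, 578 and 695 at D18, 25.6, 46.6 and 30.8 at D23, 19452, 19214 and 19541 at D30 and 26552, 25492 and 26078 at D40. In Col-0 long days it had 18624, 8281 and 339 at D13, 164, 2182 and 644 at D18, 403, 135 and 173 at D23, 131, 870.2 and 147 at D30 and 1805, 308 and 801 at D40. The long-day D13 level that placed it on the list thus came from replicates 1 and 2, and replicate 3 lay below several later libraries. Measured against D13, WRKY40 changed by 2.61 ± 0.92 (SE, adjusted p = 0.023) at D18 under the tcx5/6 label and by 7.48 ± 0.92 (SE, adjusted p = 1.4e-08) at D30 under the short-day label, in both cases upwards. The D18 call was lost without any 1 of 3 of the 6 libraries, replicate 2 of D18 among them, and with each group counted as 1 library.

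RRTF1 (AT4G34410), an ERF factor that responds to redox signals, repeated the pattern. At D13 in Col-0 long days it had 11492, 4618 and 101 normalised counts. At D30 and D40 under the short-day label it had 23144, 23319.5 and 23291 and 28464, 27400.3 and 27848, against 54.5, 54.1 and 102 at D13, a change of 8.42 ± 1.06 (SE, adjusted p = 2.4e-08) at D30. All its tcx5/6-labelled libraries stayed at or below 101, with no comparison called. Reads of RRTF1 and of AT4G08985, a long non-coding RNA member on the opposite strand that lies wholly under it, cannot be told apart. ERF13 had 2632, 766 and 58.1 at D13 in Col-0 long days, and its short-day-labelled libraries held 2229, 2104 and 2161 at D30 against 17.0, 16.9 and 23.5 at D13.

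DDF1, a factor of the CBF family known from cold and drought responses, had no read in any D13 library of the tcx5/6- or short-day-labelled series. Under the short-day label it had 97.0, 62.1 and 119 normalised counts at D18, 0 in all 3 libraries at D23, 4369.6, 4199 and 4354 at D30 and 2965, 2823 and 2458 at D40, so no read was counted at D23, between days on which there were reads. In Col-0 long days it had 1588, 658 and 13.5 at D13. ORA47, a regulator of jasmonate synthesis, rose at D18 under the short-day label by 5.02 ± 0.77 (SE, adjusted p = 2.9e-06) and RTFL12, a small peptide gene, by 5.69 ± 1.32 (SE, adjusted p = 9.0e-04), neither called with each group counted as 1 library. LOX3, a lipoxygenase that makes jasmonate precursors, had 13718, 2141 and 527 at D13 in Col-0 long days, and 17832, 18200.2 and 18329 at D30 against 473, 432 and 492 at D13 under the short-day label. It was called on no day under the tcx5/6 label.

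ERF5, ERF6 and ERF11, factors of ethylene and stress signalling, were also called higher on later days under the tcx5/6 label. ERF11 had 125, 193 and 54.8 normalised counts at D45 against 0, 7.58 and 0 at D13 under that label, a rise of 5.76 ± 0.91 (SE, adjusted p = 9.5e-07), and ERF6 rose at D30 by 4.78 ± 0.85 (SE, adjusted p = 1.0e-05). ERF5 was called higher at D23, D30 and D45. RAS1, named for responses to abscisic acid and salt, was higher in 3 of the 4 tcx5/6-labelled comparisons and all 4 short-day-labelled ones, with 3.48 ± 0.96 (SE, adjusted p = 0.0037) at D18 under the tcx5/6 label. BHLH100, an iron-deficiency factor, rose at D18 in both series, by 3.64 ± 1.46 (SE, adjusted p = 0.045) under the tcx5/6 label and 3.95 ± 1.46 (SE, adjusted p = 0.035) under the short-day label. CNGC8, a cyclic nucleotide-gated channel, rose by 0.81 ± 0.33 (SE, adjusted p = 0.048) and 1.71 ± 0.33 (SE, adjusted p = 9.0e-05) at D18. TDR1, an ERF-type factor, was called higher at D23 under the tcx5/6 label, with 24.1, 8.46 and 12.8 normalised counts against 0 in all 3 libraries of D13. BHLH100 libraries of D18 and D13 overlapped under the tcx5/6 label. Its calls at D18 were lost without any 1 of 4 of the 6 tcx5/6-labelled and 5 of the 6 short-day-labelled libraries, and that of CNGC8 under the tcx5/6 label without any 1 of 4. With 1 library left out ERF6 rose by 3.45 to 5.71 at D30, ERF11 by 5.24 to 6.79 at D45 and RAS1 by 2.85 to 4.27 at D18 under that label. With each group counted as 1 library, RAS1, BHLH100 and CNGC8 were called at D18 in neither series. PEPR1, a receptor of the danger peptide Pep1, and PUB22, a ubiquitin ligase that restrains immunity, were lower at D30 under the tcx5/6 label and higher at D30 under the short-day label, where PEPR1 had 8195, 7879.7 and 8153 normalised counts against 643, 543 and 657 at D13.

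Among the 70 overlapping members, 14, 12, 13 and 14 were called lower and 6, 11, 19 and 14 higher at D18, D23, D30 and D45 under the tcx5/6 label. In the short-day-labelled series 4, 20, 3 and 4 were called lower and 21, 3, 60 and 60 higher at D18, D23, D30 and D40. Without replicate 2 of tcx5/6-labelled D18, 7 were called lower and 2 higher at that day, and 2 were higher there without replicate 1 of D13 and 3 without replicate 3 of D18. With each group counted as 1 library, 3, 2, 5 and 7 were lower and 0, 3, 5 and 6 higher on the 4 tcx5/6-labelled days, and 0, 4, 2 and 1 lower and 0, 0, 40 and 41 higher on the 4 short-day-labelled days. With the short-day-labelled groups alone in the fit, 37 were called higher at D18, and 41 lower and 7 higher at D23. Over all genes tested the shares called higher were 17.8%, 22.1%, 27.3% and 30.1% under the tcx5/6 label and 16.8%, 23.3%, 28.8% and 34% under the short-day label. Those called lower were 21.8%, 23.8%, 30.5% and 33.9% under the tcx5/6 label and 14.5%, 25.5%, 28.7% and 36.5% under the short-day label. Under the tcx5/6 label the members' shares exceeded these on no day in either direction, so those counts are no result about the members. The 20 called lower at D23 under the short-day label, 28.6%, lie near the background. Among the 15228 genes at the level condition the shares called higher were 22%, 26%, 30.4% and 32.8% under the tcx5/6 label and 21.2%, 27.1%, 31.2% and 35.2% under the short-day label. The median log2 change of these members was 4.25 at D30 and 4.38 at D40 under the short-day label, and between -0.39 and 0.53 in the 4 tcx5/6-labelled comparisons. At D13 their levels already differed from Col-0 long days: their median was 5.09 log2 units lower under the tcx5/6 label and 3.32 lower under the short-day label, with 68 of 70 lower in each. Of the 70, 25 had a D13 mean below 10 under the tcx5/6 label and 15 under the short-day label, leaving little room for a lower call. The separated members stood 0.54 and 0.12 log2 units above the long-day D13 level. These D13 differences are descriptions, since Col-0 long days chose the genes.

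**Figure D4:**
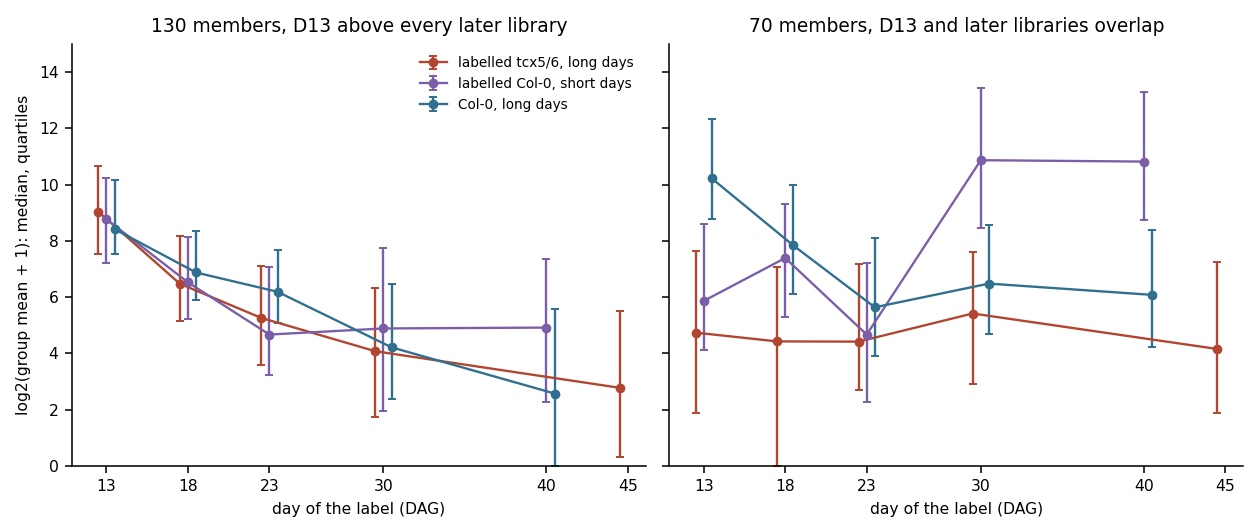
Points give the median over members of the group mean and bars the quartiles, as log2(mean + 1) against the day of the label, for the 130 separated members (left) and the 70 overlapping members (right) in the tcx5/6-labelled, short-day-labelled and Col-0 long-day series. The separated members run downwards to the last day in the tcx5/6-labelled and long-day Col-0 series and level off after D23 under the short-day label, whereas the overlapping members start high only in Col-0 long days and reach medians of 1863 and 1801 normalised counts at D30 and D40 under the short-day label.

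A list of 40 touch and stress early genes held 5 members (RRTF1, ERF5, WRKY40, ERF6 and ERF11). The other 35 had median levels of 4855, 3157 and 551 normalised counts in replicates 1, 2 and 3 of long-day Col-0 D13, the same order as the overlapping members, whose medians there were 2143, 1088 and 153. The 35 stood between 7300 and 10592 in the 6 short-day-labelled libraries of D30 and D40. Under the tcx5/6 label their medians were 48.2 to 75.8 at D13, 45.9 to 68.1 at D18, 115 to 140.3 at D23, 259 to 662 at D30 and 383 to 578 at D45. The overlapping members did not share that course, with 24.2 to 31.7 at D13, 16.5 to 20.5 at D18, 18.6 to 25.2 at D23, 25.5 to 49.7 at D30 and 11.5 to 26.4 at D45. At D30 under that label 28 of the 40 were called higher and 5 lower, against 27.3% and 30.5% of all genes tested. Time of day, handling at harvest and growth conditions are not given per library, and their part in the D13 values of the overlapping members was not tested.

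**Figure D5:**
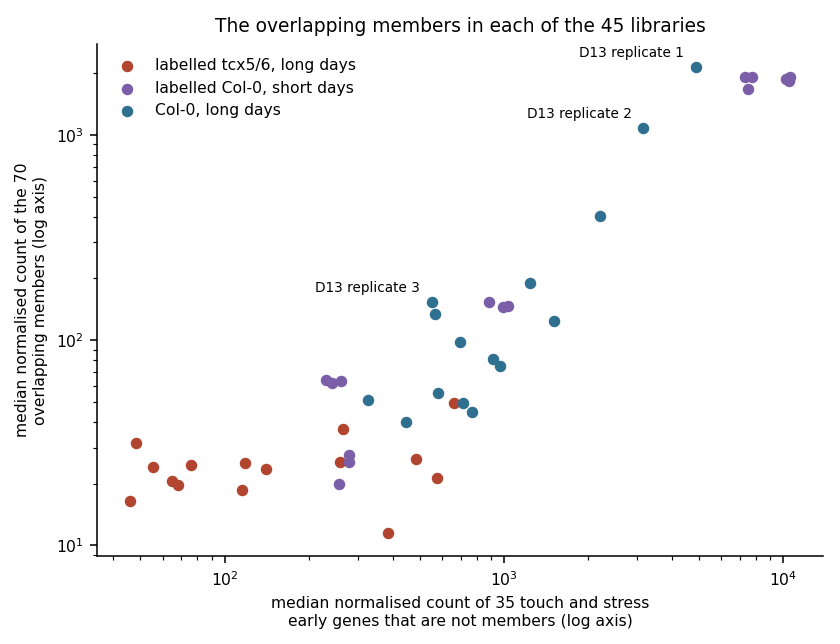
Each point is 1 of the 45 libraries; the horizontal axis gives the median normalised count of the 35 touch and stress early genes that are not members and the vertical axis that of the 70 overlapping members (both log axes). The short-day-labelled libraries of D30 and D40 lie at the upper right, at 7300 to 10592 on the horizontal axis. Replicates 1 and 2 of long-day Col-0 D13 lie to their left, at 4855 and 3157, while replicate 3 lies among the later long-day libraries.

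Set side by side at D18, 61 members were called lower under both labels, 60 were called lower under the tcx5/6 label and not called under the short-day label, and 13 the reverse. A further 1 was called lower under the tcx5/6 label and higher under the short-day label, and 5 were called higher under both. Of the 61 called under both labels 58 were separated members. Of all genes tested 21.8% and 14.5% were called lower, and 17.8% and 16.8% higher, at D18 under the tcx5/6 and short-day labels. At most 14.5% of all genes can thus have been lower under both labels. The shares for the other pairs of calls were not taken, so those counts are no result about the members. These are counts of calls, and the difference between the series was not tested. When the ranking rule was applied to each of the other series by itself, 40 members stood in the first 200 of the tcx5/6-labelled series (20%) and 46 in the first 200 of the short-day-labelled series (23%). Separated members made up 38 of those 40 and 45 of those 46. The D13 mean lay above every later mean in 125 of the 130 separated members under the tcx5/6 label and 113 under the short-day label, but in 22 and 4 of the 70 overlapping members. For these counts, and for the 40 and 46 above, no share over all genes was taken, so they are descriptions without a background.

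The pathway lists held few members: 12 of 438 listed genes, in 7 of 26 lists. None of 32 cuticle, wax and lipid transfer genes was a member; 9 of the 30 tested were called lower and 1 higher at D18 under the tcx5/6 label, against 21.8% and 17.8% of all genes tested, and 2 lower and 8 higher under the short-day label, against 14.5% and 16.8%. All 19 ribosome and nucleolus genes were called lower at D18 in both series, with medians of -1.42 and -1.63 on the log2 scale under the tcx5/6 and short-day labels, and none is a member. Tubulins, with no member either, had 11 and 7 of 14 called lower, against 21.8% and 14.5% of all genes tested.

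In all, 10 pairs of members overlap on opposite strands, 20 genes together, and the libraries carry no strand. In 11 members at least 50% of the exon length lies under a gene of the other strand. Besides RRTF1 with AT4G08985 and FAR1 with AT5G22505, the pairs include AT1G05767 with AT1G22810, PP2-B13 with AT1G56242, EMB2001 with AT2G22880, AT2G40008 with AT2G40010, AT3G01165 with AT3G02840, XTH15 with AT4G14120, AT1G04790 with AT1G04800, and PUP14 with CNGC8. Reads of such pairs cannot be told apart.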

How the data were processed

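RNA was sequenced from 45 libraries of first true leaves, 3 in each of 15 groups. Per the submitters' processing notes, the tools included STAR 2.7.1a, Trim Galore 0.6.6 with cutadapt, DESeq2 1.40.1 and HTSeq 2.0; no source used here gives the genome build. The deposited values are a signal, the authors' gene counts divided by a size factor, and 100% of them returned to whole reads within 0.01. The 5 HTSeq summary lines stayed out of every test. Members were ranked as described above. Tests used R 4.3.3 and limma 3.58.1, on values transformed to log2(value + 1), a scale that understates the change of low genes, with a trend in the variance, all 15 groups in 1 fit with 30 residual degrees of freedom, and Benjamini-Hochberg adjustment over 23493 genes with at least 10 in at least 3 libraries. Calls required an adjusted p below 0.05. The fit was tested on simulated data. Alternatives used edgeR 4.0.16 and DESeq2 1.42.0 on the recovered reads, other pseudocounts, filters and scalings, single libraries left out, and groups counted as 1 library. Names and opposite-strand overlaps came from RefSeq's TAIR10.1 annotation, in which all 200 members matched. Members named are the 15 highest with a symbol, up to 4 per list, the 5 lowest and 5 highest at D18 per series and those at the limit of the ranking; the others, such as CSD2, MIOX2, CYCA2;3, CPN60A, SCA3, PME5 and SMC2, were picked after their values were seen. The members and lists were chosen with earlier results of these data known.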

Additional observations from a re-analysis of the deposited data

Results flagged for a closer look

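Some members moved in opposite directions in the other 2 series, with every library on one side of the D13 mean in each; the difference between the series was not tested. At D18, 1 member lay above D13 in every tcx5/6-labelled library and below it in every short-day-labelled one, and 6 members did the reverse. At D23 these numbers were 7 and 2. At D30, 15 members lay below D13 in every tcx5/6-labelled library and above it in every short-day-labelled one. The share of all genes that met these conditions was not taken, so the numbers are no result about the members.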

How the results depend on the processing

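With each group counted as 1 library, 51 and 80 members were lower at D18 and D23 under the tcx5/6 label and 15, 76 and 64 at D18, D23 and D30 under the short-day label, and 40 and 10 were lower at all 4 days; this fit has fewer samples. Choosing the members without replicate 3 of long-day Col-0 D13, added after seeing the data, kept 127 of the 200 and gave 70, 71, 72 and 77 lower under the tcx5/6 label and 38, 80, 53 and 60 under the short-day label, with 57 and 34 at all 4 days. Choosing them by the lowest D13 library minus the highest later library kept 88 and gave 134, 174 and 183 lower at D18, D30 and D40 and 129 at all 4 days under the short-day label. The cause was not tested. With 1 library left out, the counts ranged from 89 to 113, 119 to 123, 129 to 132 and 136 to 138 under the tcx5/6 label and from 63 to 67, 120 to 125, 101 to 104 and 111 to 114 under the short-day label, from 90 to 94 and 60 to 61 at all 4 days, and 127 to 197 of the members stayed chosen. On recovered reads edgeR called 118, 130, 135 and 139 lower under the tcx5/6 label and 84, 131, 106 and 114 under the short-day label. Of 12376 values of 91 named members, 11708 kept their call of lower, higher or neither, 470 lost the call and 198 gained one. Among those called in both fits 0 reversed, and the direction of values not called was not compared.

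Libraries with the same replicate number showed little shared deviation (correlations of -0.0675 to 0.124, -0.0331 to 0.0284 and -0.0848 to 0.124 in the tcx5/6-labelled, short-day-labelled and long-day Col-0 series). This cannot show whether same-numbered libraries were harvested or prepared together, and the main fit used no pairing. With the replicate block, 122, 130, 133 and 139 members were lower under the tcx5/6 label and 73, 134, 105 and 117 under the short-day label, with 110 and 66 at all 4 days.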
